A study of Mus musculus with 2 samples.

Results

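The 9 genes of hippocampal peptide signalling described here were chosen by symbol among the 30431 genes of the count matrices: the peptide precursors Npy, Sst, Vip, Cck and Penk, the granin Scg2, and the neuropeptide Y receptors Npy1r, Npy2r and Npy5r. Their counts were followed through the interneuron types, the pyramidal sublayers and the dentate granule nuclei of a mouse hippocampal CA1 dissection. The epilepsy library came from mice treated with repeated intraperitoneal kainate at 5 mg/kg until status epilepticus, a state of continuous seizures, which was ended with diazepam at 4 mg/kg. The control library came from mice given vehicle, saline or DMSO. All were male C57BL/6J mice carrying Calb1::Cre and the Tdtomato reporter, 6 to 7 weeks old at treatment, and nuclei of dorsal CA1 were isolated 12 weeks later. The Cre is driven by Calb1, a calcium-binding protein gene of superficial pyramidal, granule and some inhibitory cells, and the labels do not give the signal on which nuclei were sorted. Each condition is 1 library. Nuclei of 2 mice are named for each, and how they map to the library is not given in the labels.

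Neuropeptides are cut from larger precursor proteins in dense-core vesicles and released with strong or repeated firing. In the hippocampus, neuropeptide Y, somatostatin and vasoactive intestinal peptide are made mainly by inhibitory interneurons, whereas cholecystokinin and enkephalin RNA is also found in pyramidal cells. Neuropeptide Y acts on G protein-coupled receptors that damp excitatory transmission, and it has long been studied as an endogenous anticonvulsant. Granins such as secretogranin II are cargo of the same vesicles, and Scg2 is known as a gene induced by neuronal activity through the cyclic AMP response element (CRE).

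The epilepsy library held 3078 nuclei with a median of 2443 unique molecular identifiers (UMIs, each marking 1 captured RNA molecule), and the control library held 3661 nuclei with a median of 3447. After removal of likely doublets, 2345 epilepsy and 2840 control nuclei were CA1 pyramidal-like, 143 and 198 were interneuron-like, and 14 and 154 were dentate granule-like. Some 16 barcodes occurred in both libraries. Levels are summed UMIs of a gene scaled to the total of a class (CPM), intervals in parentheses are exact 95% intervals that cover counting error only, and all ratios are log2 of epilepsy over control CPM. There are no replicate libraries, so differences between the conditions carry no test and no spread between animals, and the condition cannot be told apart from the library, the mouse or the dissection.

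The promoters of Scg2, Cck, Sst and Npy5r are shown because Scg2 and Cck were lower by a similar factor in epilepsy pyramidal nuclei, Sst carries the CRE from which the element is best known, and Npy5r had the lowest ratio of the 5 members that could be measured in pyramidal nuclei. Each is the 250 bases before the RefSeq transcription start in GRCm38.p6, written 5′ to 3′ on the strand of the gene, with the full CRE (TGACGTCA) or, in Cck, its half-site (TGACG, read here as CGTCA on the opposite strand) in capitals.
Scg2, chr1:79440027-79440276, minus strand: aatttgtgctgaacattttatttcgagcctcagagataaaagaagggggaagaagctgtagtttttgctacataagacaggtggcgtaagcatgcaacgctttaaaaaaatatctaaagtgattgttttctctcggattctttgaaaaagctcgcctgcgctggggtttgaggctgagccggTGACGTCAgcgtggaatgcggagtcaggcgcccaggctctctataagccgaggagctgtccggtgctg
Cck, chr9:121495695-121495944, minus strand: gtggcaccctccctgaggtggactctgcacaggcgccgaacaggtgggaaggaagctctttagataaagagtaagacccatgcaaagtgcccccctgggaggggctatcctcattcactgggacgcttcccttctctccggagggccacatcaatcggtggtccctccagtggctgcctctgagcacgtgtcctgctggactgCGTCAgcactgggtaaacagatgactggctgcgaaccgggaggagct
Sst, chr16:23890845-23891094, minus strand: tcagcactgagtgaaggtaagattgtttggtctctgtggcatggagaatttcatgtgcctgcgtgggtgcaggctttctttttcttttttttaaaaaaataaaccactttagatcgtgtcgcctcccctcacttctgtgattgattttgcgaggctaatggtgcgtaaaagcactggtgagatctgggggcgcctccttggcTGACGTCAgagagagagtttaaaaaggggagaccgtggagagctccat
Npy5r, chr8:66688095-66688344, minus strand: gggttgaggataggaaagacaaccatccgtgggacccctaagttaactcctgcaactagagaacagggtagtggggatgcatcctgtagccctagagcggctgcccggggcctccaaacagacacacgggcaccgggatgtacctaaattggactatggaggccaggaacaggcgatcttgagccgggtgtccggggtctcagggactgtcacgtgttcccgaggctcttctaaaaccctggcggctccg
RefSeq promoters were matched for 8 of the 9 members, Penk being the other. Both strands were searched, and a full CRE contains the half-site once on each strand. The full CRE stood 68 bases before the start in Scg2 and 48 bases before it in Sst, and 1.55% of 32851 mouse promoter windows of 250 bases hold it. A half-site without a full CRE stood 47 bases before the start in Cck and 79 bases in Vip, against 17.8% of all windows with a half-site. Neither was found in these windows of Npy, Npy1r, Npy2r or Npy5r. A match of letters is a description and does not show that a factor binds there.

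Npy, the precursor of neuropeptide Y, was found almost only in inhibitory nuclei. Interneuron-like nuclei held 25 Npy UMIs in epilepsy and 35 in control, or 75.7 CPM (49.0 to 112) and 52.8 CPM (36.8 to 73.4). CA1 pyramidal-like nuclei held 3 UMIs in each library, 0.514 and 0.308 CPM, and no granule-like nucleus held any. An Npy UMI was detected in 12.6% of epilepsy interneuron-like nuclei and in 12.6% of control ones, at median depths of 2157 and 3296 UMIs, against 0.128% and 0.106% of pyramidal-like nuclei at 2563 and 3573 UMIs. The log2 ratio in interneuron-like nuclei was 0.52 (-0.28 to 1.30), so higher Npy in epilepsy was not resolved from counting error.

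Within the interneurons, Npy was highest in the type named neurogliaform, after dendrite-targeting cells, and marked here by Lamp5 and Sv2c. These 35 epilepsy and 56 control nuclei had 195 CPM (109 to 322) and 111 CPM (67.0 to 174) of Npy, a log2 ratio of 0.81 (-0.27 to 1.87). The type named for the medial ganglionic eminence (MGE), marked by Sox6, had 45.7 CPM (18.4 to 94.3) in epilepsy and 38.8 CPM (20.1 to 67.8) in control. The type named for the caudal eminence (CGE), marked by Adarb2, had 29.8 CPM (6.15 to 87.1) and 21.8 CPM (5.95 to 55.9). All 3 types thus had the higher Npy value in the epilepsy library and all 3 pairs of intervals overlapped, and the MGE and CGE types did not differ from each other beyond counting error in either library. Lhx6, the MGE transcription factor, was at 46.3 to 98.5 CPM in MGE sub-clusters and had 0 UMIs in CGE sub-clusters and in the smaller neurogliaform sub-cluster. It did not set the MGE type apart from the Nos1 sub-cluster of the neurogliaform type, with 11 UMIs (52.0 CPM) there and 10 UMIs (46.3 CPM) in the largest MGE sub-cluster. Kcnc2, also on the MGE list, did not set the MGE type apart from the CGE type, at 1703 to 2463 CPM in MGE sub-clusters and 2833 CPM in a CGE sub-cluster. Adarb2 was at 8877 to 26490 CPM in CGE sub-clusters. It was at 8720 CPM in the smaller neurogliaform sub-cluster and 2250 CPM in the Nos1 one.

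The neurogliaform nuclei split into a larger Nos1 and Lamp5 sub-cluster and a smaller Ndnf and Reln sub-cluster, in which the Npy difference had opposite signs. The type name rests on part of its marker list. It does not settle the origin of the larger sub-cluster, which held Lhx6 at 52.0 CPM, a level of the MGE sub-clusters. Nos1 was at 369 CPM in the larger sub-cluster and 83.8 CPM in the smaller, against 211 CPM in a CGE sub-cluster. Ndnf and Kit held 1 and 3 UMIs in the larger sub-cluster. Reln was at 194 CPM there, against 1815 CPM in an MGE sub-cluster. In the Nos1 sub-cluster, 28 epilepsy nuclei held 13 Npy UMIs and 48 control nuclei held 11, or 208 CPM (111 to 356) and 73.8 CPM (36.8 to 132), a log2 ratio of 1.495 (0.22 to 2.80). In the Ndnf sub-cluster, 7 epilepsy nuclei held 2 Npy UMIs and 8 control nuclei held 8, or 140 CPM (17.0 to 507) and 372 CPM (160 to 732). No single nucleus held more than 3 Npy UMIs, so the values of the Nos1 sub-cluster do not rest on 1 nucleus. The 2 epilepsy UMIs of the Ndnf sub-cluster may come from 1 nucleus, and its 2 intervals overlap. Both sub-clusters were seen only after clustering and hold few nuclei.

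Sst, the precursor of somatostatin, was found only in the MGE type among interneurons, and mostly in 1 of its sub-clusters. MGE-type nuclei held 16 Sst UMIs in epilepsy and 45 in control, 105 CPM (59.8 to 170) and 146 CPM (106 to 195), while CGE-type and neurogliaform nuclei held 0 in both libraries. The sub-cluster led by Grin3a and Satb1 carried 15 of the 16 epilepsy UMIs and 39 of the 45 control UMIs, at 301 CPM (169 to 497) and 417 CPM (297 to 570). Up to 8 Sst UMIs in epilepsy and 7 in control came from a single nucleus, so the nuclei with a UMI are the sparer count: 36.8% of the 19 epilepsy nuclei and 66.7% of the 24 control nuclei of that sub-cluster held Sst, at median depths of 2613 and 4242 UMIs. The log2 ratio over interneuron-like nuclei was -0.49 (-1.41 to 0.36), which was not resolved from counting error. Npy and Sst were detected together in 2 of 143 epilepsy and 4 of 198 control interneuron-like nuclei.

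Vip, the precursor of vasoactive intestinal peptide made by interneurons that mostly contact other interneurons, was the sparsest member. CGE-type nuclei held 4 Vip UMIs in epilepsy and 10 in control, 39.8 CPM (10.8 to 102) and 54.6 CPM (26.2 to 100), and MGE-type nuclei held 0 in both. A Grm8-led CGE sub-cluster with 13 nuclei in each library carried 4 of the epilepsy and 6 of the control UMIs. Neurogliaform nuclei held 0 Vip UMIs in epilepsy and 1 in control. Each library had 1 further Vip UMI in the 2345 and 2840 pyramidal-like nuclei. The counts place most Vip in the CGE type and are too few to compare the conditions.

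**Figure D1:**
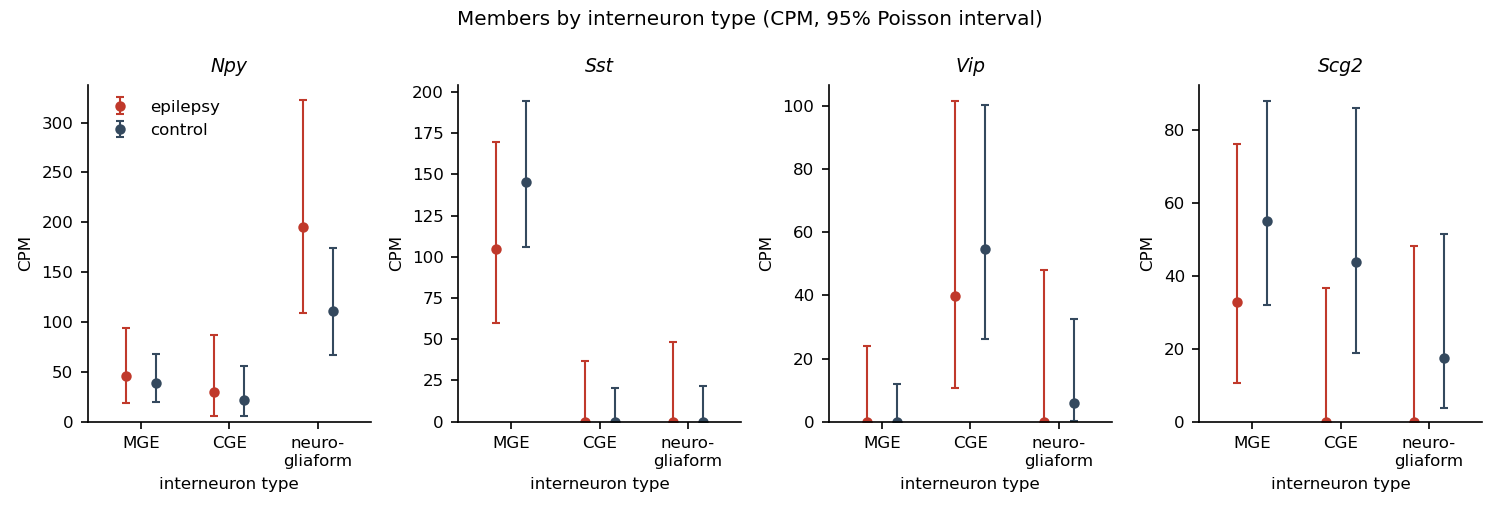
Levels of Npy, Sst, Vip and Scg2 (vertical axis, CPM) in MGE, CGE and neurogliaform interneuron types, epilepsy in red to the left and control in dark blue to the right, with 95% Poisson intervals. Npy is highest in the neurogliaform type, Sst lies only in the MGE type, Vip lies in the CGE type apart from 1 control UMI in the neurogliaform type, and every pair of intervals within a type overlaps.

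In interneuron-like nuclei, 2 of the 9 members, Npy and Sst, reached the 50 UMIs over both libraries that were set for reading a ratio, and neither was past 1.5-fold in either direction. Over all 3393 genes at that depth, 7.13% were at least 1.5-fold lower and 5.48% at least 1.5-fold higher in epilepsy. Scg2, the precursor of secretogranin II, fell short with 33 UMIs in all but had the lowest ratio: 5 UMIs in epilepsy and 28 in control, 15.1 CPM (4.91 to 35.3) and 42.2 CPM (28.1 to 61.0), log2 -1.48 (-3.21 to -0.09). MGE-type nuclei held 5 and 17 of those UMIs and CGE-type nuclei held 0 and 8. The remaining 3 control UMIs were in neurogliaform nuclei, where epilepsy had 0. Thinned to 1000 UMIs per nucleus, the interneuron Scg2 ratio was -0.86 (-4.25 to 1.75), and within the MGE type alone it was -0.75 (-2.54 to 0.75) before thinning and -0.07 (-3.65 to 3.05) after it, so a lower Scg2 level in epilepsy interneurons was not resolved at equal depth per nucleus.

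Cck, the precursor of cholecystokinin, was not higher in interneuron-like nuclei as a whole than in pyramidal nuclei, which held most of its UMIs. Pyramidal-like nuclei held 107 Cck UMIs in epilepsy and 263 in control, 18.3 CPM (15.0 to 22.2) and 27.0 CPM (23.9 to 30.5), a log2 ratio of -0.56 (-0.90 to -0.23). Interneuron-like nuclei held 5 and 8 UMIs, 15.1 CPM (4.91 to 35.3) and 12.1 CPM (5.21 to 23.8), not above the pyramidal level. The interneuron sub-cluster rich in Cnr1, the cannabinoid receptor gene known to mark CCK basket cells, held 2 and 4 of them. It had 53986 and 87768 of the 330400 and 663009 UMIs of interneuron-like nuclei. Its Cck level thus lay above the pyramidal one in both libraries, on few UMIs. The pyramidal intervals of the 2 libraries did not overlap, and the fold was just short of 1.5. Cck and Scg2 were also counted in glia-like nuclei, which gives no clean background for either. Oligodendrocyte-like nuclei held 3 Cck UMIs in epilepsy and 9 in control, 53.6% and 97.5% of the pyramidal CPM, and 2 and 7 Scg2 UMIs, 32.7% and 69.5% of it. Microglia-like nuclei held 1 and 2 Cck UMIs and 1 and 4 Scg2 UMIs, the 4 from 1 nucleus.

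The sublayer names rest on part of the marker lists. Superficial-like nuclei were above deep-like nuclei in Calb1, Epha3 and Syt17 and below them in Ndst4, Col11a1 and Nr4a2. The deep markers Sox5 and Enpp2 went the other way, at 94.7 and 74.3 CPM in superficial-like nuclei against 49.99 and 22.0 CPM in deep-like nuclei of both libraries together. So did the superficial marker Tenm3, at 801 CPM in superficial-like and 1130 CPM in deep-like nuclei.

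In deep-like pyramidal nuclei, Cck was at 16.2 CPM (10.4 to 24.1) in epilepsy and 31.0 CPM (24.9 to 38.2) in control, log2 -0.94 (-1.65 to -0.27). In superficial-like nuclei it was at 17.6 CPM (11.6 to 25.7) and 23.7 CPM (18.1 to 30.5), log2 -0.42 (-1.14 to 0.25). Of the 2 members with 50 UMIs in deep-like nuclei, Cck and Scg2, 1 was at least 1.5-fold lower, against 8.65% of 7307 genes, and in superficial-like nuclei 0 of the same 2 were, against 5.66% of 7385 genes. The difference between the sublayers' ratios was not tested and their intervals overlap. Over the alternatives run the deep ratio lay between -1.12 and -0.47. It was short of 1.5-fold at a clustering resolution of 2.0, at -0.47 (-1.23 to 0.24), and its interval included 0 without centring by library, at -0.60 (-1.33 to 0.08). The superficial ratio lay between -0.75 and 0.10, so its sign is not settled.

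Penk, the precursor of the enkephalins, was low in deep-like pyramidal nuclei of both libraries. Superficial-like nuclei held 13 Penk UMIs in epilepsy and 30 in control, 8.49 CPM (4.52 to 14.5) and 11.8 CPM (7.98 to 16.9), while deep-like nuclei held 2 and 5, 1.35 CPM (0.163 to 4.87) and 1.76 CPM (0.572 to 4.11). Superficial over deep, the log2 ratio was 2.65 (0.51 to 5.84) in epilepsy and 2.75 (1.37 to 4.47) in control, so the sublayer difference was present in both. Superficial-like nuclei were not the highest: the sub-cluster led by activity genes (Tiparp, Nr4a3 and Fos) held 11 and 18 Penk UMIs, 16.8 CPM (8.39 to 30.1) and 17.1 CPM (10.1 to 27.0), with intervals that overlap the superficial ones. In control the highest Penk level, 17.8 CPM, was in another pyramidal sub-cluster. Over all pyramidal-like nuclei, 41 and 88 UMIs gave 7.02 CPM (5.04 to 9.53) and 9.05 CPM (7.26 to 11.1), log2 -0.37 (-0.94 to 0.19), which was not resolved from counting error. Interneuron-like nuclei held 0 and 2 Penk UMIs, a floor of 9.08 CPM for 3 UMIs in epilepsy.

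Scg2 had the opposite sublayer order. Deep-like nuclei held 51 Scg2 UMIs in epilepsy and 136 in control, 34.4 CPM (25.6 to 45.2) and 47.9 CPM (40.2 to 56.7), and superficial-like nuclei held 16 and 36, 10.4 CPM (5.97 to 17.0) and 14.2 CPM (9.94 to 19.7). Superficial over deep, the log2 ratio was -1.72 (-2.63 to -0.88) in epilepsy and -1.75 (-2.33 to -1.22) in control, nearly the same value in both libraries. The activity-gene sub-cluster was as high as the deep one, with 42.8 CPM (28.4 to 61.8) and 49.3 CPM (36.8 to 64.7). It held 233 epilepsy and 285 control nuclei, 7.80% and 8.03% of all nuclei kept. The members were left out of the genes used for clustering.

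Over all pyramidal-like nuclei Scg2 had 117 UMIs in epilepsy and 287 in control, 20.05 CPM (16.6 to 24.0) and 29.5 CPM (26.2 to 33.1), log2 -0.56 (-0.88 to -0.24). The lower value in epilepsy was found in 6 of the 6 pyramidal sub-clusters with at least 5 Scg2 UMIs, with the smallest gap in the activity-gene sub-cluster (log2 -0.20, -0.92 to 0.49). Without that sub-cluster the ratio was -0.66 (-1.03 to -0.30). When nuclei were thinned to 1000 UMIs, which left out 134 epilepsy and 92 control nuclei with fewer, the ratio was -0.16 (-0.70 to 0.38), so the Scg2 difference was not resolved at equal depth per nucleus. The thinned counts were 52 and 72 UMIs, and a Scg2 UMI was then found in 2.26% of 2211 epilepsy and 2.51% of 2748 control nuclei, against 4.69% of 2345 and 8.77% of 2840 before thinning.

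**Figure D2:**
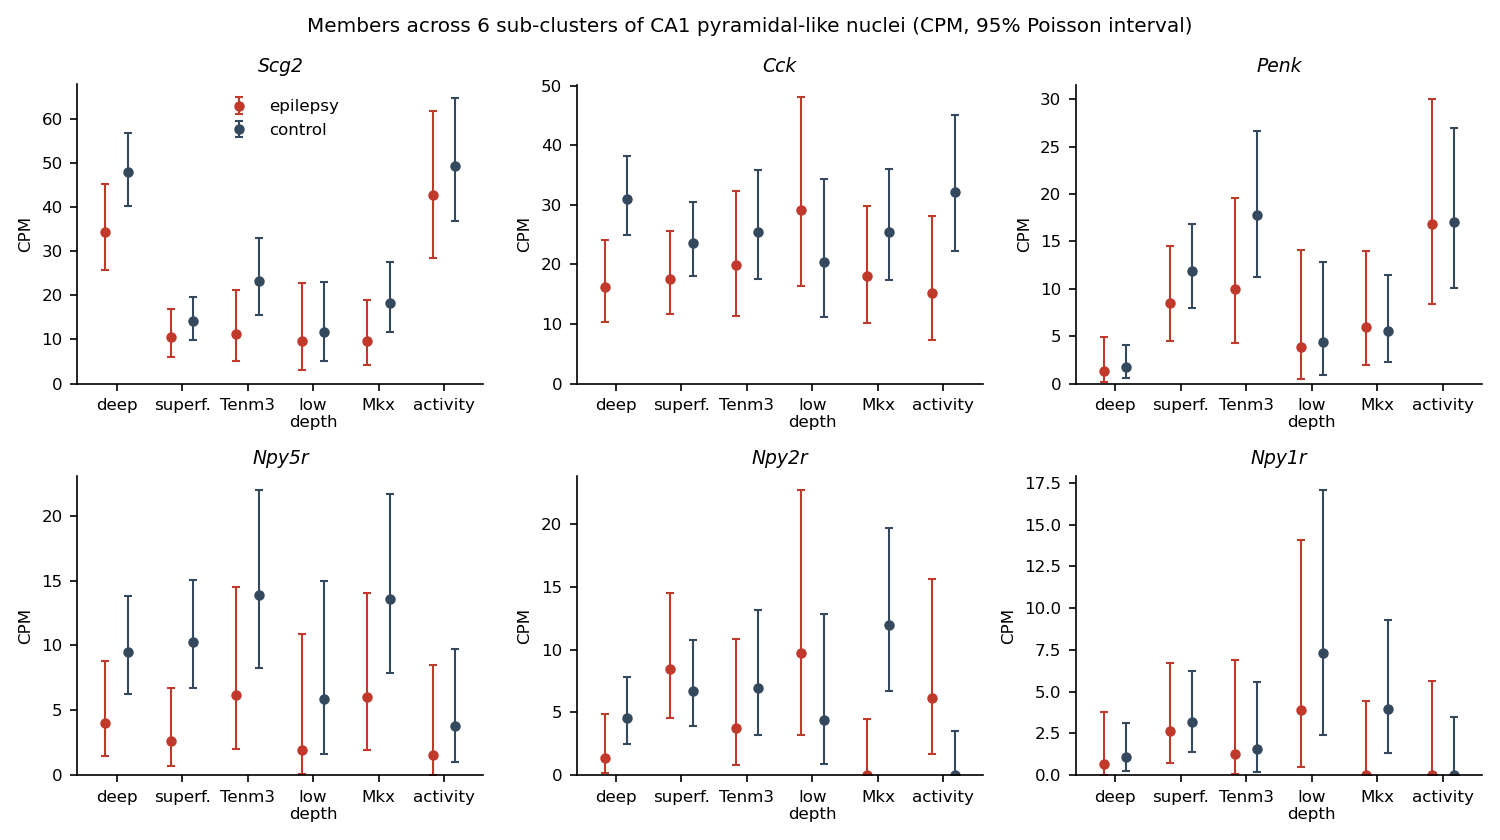
Levels of Scg2, Cck, Penk and the 3 NPY receptors (vertical axis, CPM) in 6 sub-clusters of CA1 pyramidal-like nuclei, named by sublayer, leading gene or low depth, epilepsy in red and control in dark blue with 95% Poisson intervals. Scg2 is high in the deep and activity-gene sub-clusters, Penk is low in the deep one, and Npy5r is lower in epilepsy in all 6.

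Npy5r, which encodes the Y5 receptor, had the lowest ratio of the members measured in pyramidal nuclei. Pyramidal-like nuclei held 22 Npy5r UMIs in epilepsy and 96 in control, 3.77 CPM (2.36 to 5.71) and 9.87 CPM (7.996 to 12.1), which is 2.62-fold lower in epilepsy, log2 -1.39 (-2.13 to -0.71). The 2 intervals did not overlap. At most 1 UMI in epilepsy and 2 in control came from a single nucleus, so the counts are nearly counts of nuclei: 0.938% of epilepsy and 3.27% of control pyramidal-like nuclei held one. Thinned to 1000 UMIs per nucleus, without the shallower nuclei, the shares were 0.452% (0.217 to 0.830) and 1.06% (0.708 to 1.51), and the log2 ratio was -1.22 (-2.42 to -0.14).

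The lower Npy5r level was spread over the pyramidal layer. Deep-like nuclei had 4.05 CPM (1.48 to 8.81) in epilepsy and 9.51 CPM (6.27 to 13.8) in control, log2 -1.23 (-2.80 to 0.07), and superficial-like nuclei had 2.61 CPM (0.712 to 6.69) and 10.3 CPM (6.70 to 15.0), log2 -1.97 (-3.95 to -0.45). The remaining pyramidal nuclei had 4.25 CPM (2.197 to 7.43) and 9.88 CPM (7.15 to 13.3), log2 -1.22 (-2.28 to -0.27). Epilepsy was lower in 6 of the 6 sub-clusters with at least 5 Npy5r UMIs, at 1.53 to 6.21 CPM, against 3.79 to 13.9 CPM in control. Sub-clusters of 1 library are not replicates. In neither library did superficial and deep nuclei differ in Npy5r beyond counting error, with superficial over deep at log2 -0.63 (-2.90 to 1.45) in epilepsy and 0.11 (-0.73 to 0.94) in control.

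Npy5r RNA was not confined to pyramidal nuclei. Oligodendrocyte-like nuclei held 2 UMIs in epilepsy and 4 in control, 6.56 CPM (0.794 to 23.7) and 11.7 CPM (3.19 to 30.0), and 0.647% and 1.79% of them, at median depths of 613 and 846 UMIs, held one. Those nuclei also carried Slc17a7, the vesicular glutamate transporter of pyramidal cells, at 43.3% of the pyramidal CPM in epilepsy and 68.5% in control, so they are no clean background. In interneuron-like nuclei, where Slc17a7 stood at 12.0% and 10.6% of the pyramidal CPM, there were 2 and 2 Npy5r UMIs, 6.05 CPM (0.733 to 21.9) and 3.02 CPM (0.365 to 10.9).

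Npy2r encodes the Y2 receptor, a mainly presynaptic receptor that reduces glutamate release. Pyramidal-like nuclei held 27 Npy2r UMIs in epilepsy and 59 in control, 4.63 CPM (3.05 to 6.73) and 6.07 CPM (4.62 to 7.83), log2 -0.39 (-1.11 to 0.29), which was not resolved from counting error. By sublayer the epilepsy nuclei were uneven: superficial-like nuclei had 13 UMIs in epilepsy and 17 in control, 8.49 CPM (4.52 to 14.5) and 6.70 CPM (3.91 to 10.7), whereas deep-like nuclei had 2 and 13, 1.35 CPM (0.163 to 4.87) and 4.58 CPM (2.44 to 7.83). Superficial over deep was log2 2.65 (0.51 to 5.84) in epilepsy and 0.55 (-0.58 to 1.71) in control, and those intervals overlap. The sub-cluster led by Mkx held 0 Npy2r UMIs in 307 epilepsy nuclei and 15 in 351 control nuclei. That is at most 3.61 CPM at a floor of 3 UMIs against 11.9 CPM (6.69 to 19.7). The floor is 3.31-fold below the control value, a fold that leaves out the counting error of the control value. This sub-cluster was singled out after its values were seen. The activity-gene sub-cluster held 4 and 0 UMIs, so Npy2r had no common direction over the layer.

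Npy1r, which encodes the mainly postsynaptic Y1 receptor, lies 9064 bp from Npy5r on chromosome 8 (GRCm38), Npy5r at 66679965 to 66688128 on the minus strand and Npy1r at 66697192 to 66706792 on the plus strand. Pyramidal-like nuclei held 8 Npy1r UMIs in epilepsy and 23 in control, 1.37 CPM (0.592 to 2.70) and 2.36 CPM (1.499 to 3.55), log2 -0.79 (-2.16 to 0.42). The value pointed the same way as Npy5r but its interval includes 0, and 31 UMIs are under the minimum for a ratio. Among pyramidal-like nuclei, 0 of 2345 in epilepsy and 1 of 2840 in control held UMIs of more than 1 NPY receptor.

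Granule-like nuclei allow a description of the control library only. Its 154 nuclei held 11 Scg2 UMIs, 36.3 CPM (18.1 to 64.9), and 5 UMIs each of Npy1r and Npy5r, 16.5 CPM (5.35 to 38.5). They also held 3 UMIs each of Npy2r and Cck and 2 of Penk, with 0 of Npy, Sst and Vip. The 5 Npy5r UMIs came from 3 nuclei, 1 of which held 3. In the epilepsy library the 14 granule-like nuclei had 12734 UMIs in all and none of any member, a total in which 3 UMIs would be 236 CPM, so no difference was detectable at this depth. Condition and dissection cannot be told apart in the number of granule-like nuclei.

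**Figure D3:**
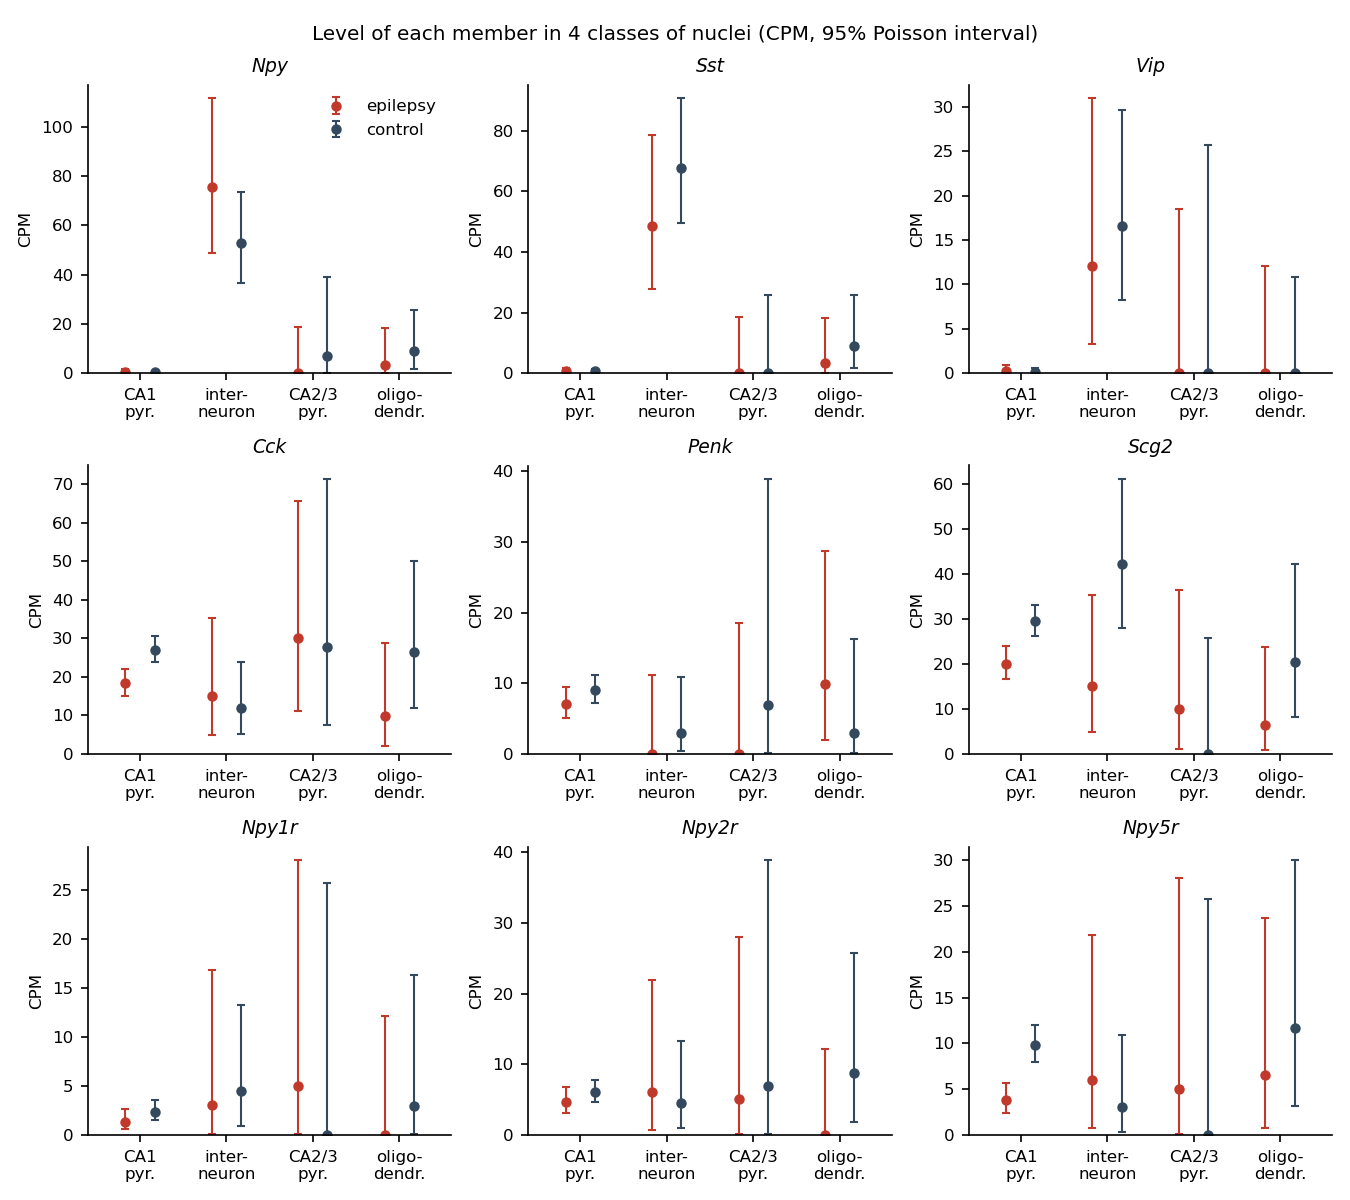
Level of each of the 9 members (vertical axis, CPM) in CA1 pyramidal, interneuron, CA2/CA3 pyramidal and oligodendrocyte-like nuclei, epilepsy in red to the left and control in dark blue to the right, with 95% Poisson intervals. Npy, Sst and Vip stand out in interneurons, while Cck, Scg2 and the NPY receptors have their narrowest intervals in pyramidal nuclei.

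Read together in pyramidal-like nuclei, 5 of the 9 members reached 50 UMIs, namely Cck, Penk, Scg2, Npy2r and Npy5r. Of these, 1 (Npy5r) was at least 1.5-fold lower in epilepsy and 0 were at least 1.5-fold higher, against 5.16% lower and 8.72% higher of 11089 genes. The share of lower genes was 7.97% among genes with 100 to 200 UMIs, the range of Npy5r, and 11.3% among the 1824 genes with a body under 10 kb, which is the length of all 9 members (1386 to 9702 bp). All 5 ratios were below 0, with a median of -0.56, while the median of all genes was -0.00 and 50.1% of all genes were below 0.

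Short genes leaned slightly lower in epilepsy. The median log2 ratio in pyramidal-like nuclei was -0.04 over the genes under 10 kb and -0.03 over 65 ribosomal protein genes. Of the genes under 10 kb 54.9% were below 0, against 40.4% of genes over 100 kb, and the genes under 10 kb held 9.29% of pyramidal UMIs in epilepsy and 9.96% in control. The part of gene length in the member ratios was not tested. Mitochondrial UMIs were 0.0147% in epilepsy and 0.0174% in control. Without the activity-gene sub-cluster 3 of the 5 members were past 1.5-fold lower, namely Npy5r, Scg2 and Npy2r, and without the low-depth sub-clusters 2 were, Npy5r and Cck. Those 2 settings were chosen after the values were seen. With equal weight per nucleus 2 of the 5 were, Npy5r and Scg2 (log2 -0.59). The share of all genes past 1.5-fold was not computed in these settings. The member counts there have no background and are not read as a result about the members.

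**Figure D4:**
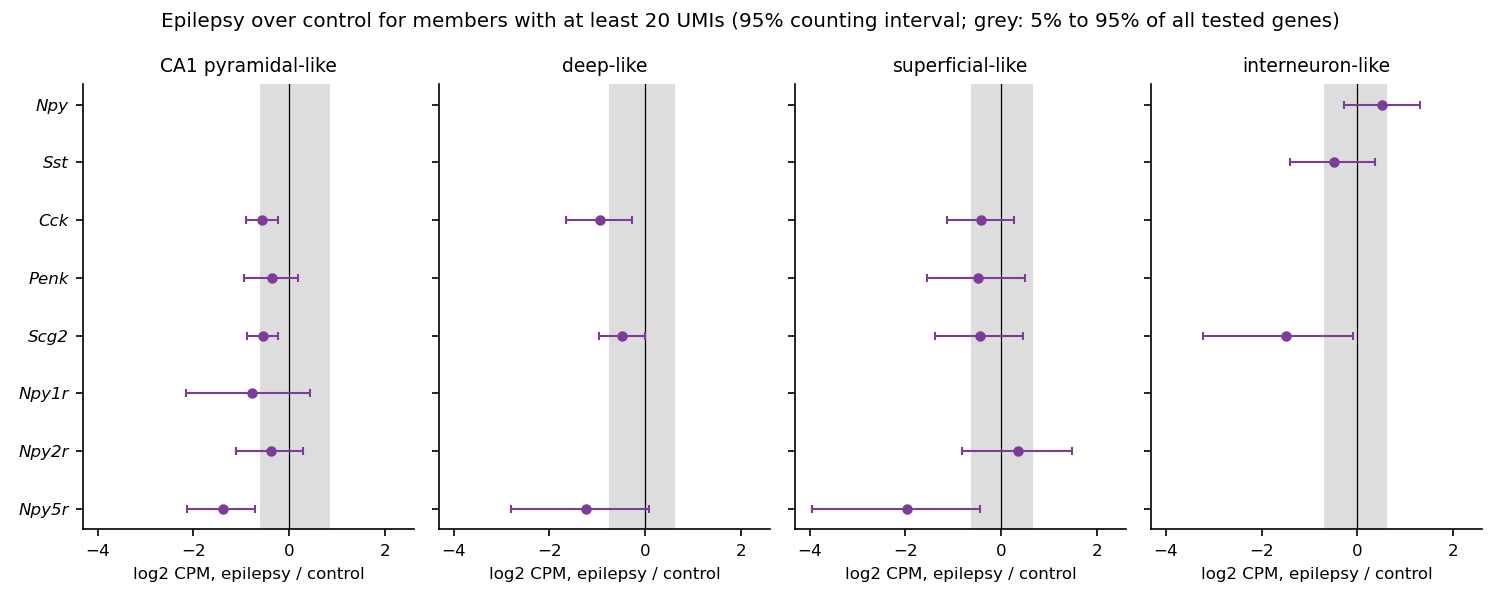
Log2 ratio of epilepsy over control CPM (horizontal axis) with 95% counting intervals for members with at least 20 UMIs, in CA1 pyramidal, deep, superficial and interneuron-like nuclei; the grey band runs from the 5% to the 95% quantile of all tested genes. Npy5r lies left of the band in the pyramidal panel at -1.39, and the interneuron intervals of Npy and Sst include 0.

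The wider peptide machinery was followed through 6 gene lists in pyramidal-like nuclei. All 7 granins and granule proteins on the list were measured. All 7 ratios were below 0, with a median of -0.39, against 50.1% of all genes below 0. At least 1.5-fold lower were 2 of them, against 5.16% of all genes and 11.9% of genes with 50 to 100 UMIs, their range. Those 2 were Vgf, log2 -0.85 (-1.80 to 0.02), and Pcsk1n, log2 -0.64 (-1.34 to 0.02). Their intervals include 0, as do those of Scg3, log2 -0.06 (-0.34 to 0.21), and Chga, log2 -0.12 (-0.58 to 0.33). Scg5, a chaperone of the prohormone convertase PC2, was at 116 CPM in epilepsy and 152 CPM in control, log2 -0.39 (-0.53 to -0.26), and Chgb, which encodes chromogranin B, was at 31.9 and 41.4 CPM, log2 -0.38 (-0.64 to -0.12). In interneuron-like nuclei only Scg5 reached 50 UMIs, with 62 and 87 UMIs and log2 0.52 (0.02 to 1.00), the other direction.

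Of the prohormone processing enzymes, 7 of 9 were measured, 1 was past 1.5-fold lower and 0 were past 1.5-fold higher, against 5.16% and 8.72% of all genes. Pcsk1, the convertase PC1/3, had 64 UMIs in epilepsy and 162 in control, log2 -0.60 (-1.04 to -0.18). In deep-like nuclei alone the lower value was not seen, with 25 and 43 Pcsk1 UMIs, log2 0.15 (-0.62 to 0.90). Cpe, the carboxypeptidase that trims the cut peptides, stood on the other side at 875 CPM (5105 UMIs) and 609 CPM (5920 UMIs), log2 0.52 (0.47 to 0.58). The median of the list was -0.20, and its members were split with 4 of 7 below 0. In interneuron-like nuclei 4 were measured, with Pcsk2 (PC2) at 69 and 87 UMIs, log2 0.67 (0.19 to 1.14), and Cpd, another carboxypeptidase, at 13 and 49 UMIs, log2 -0.91 (-1.92 to -0.01).

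Of the genes for dense-core vesicle formation and release, 12 of 13 were measured, 7 were below 0 and the median was -0.10. Rab3a, a vesicle GTPase shared with synaptic vesicles, was the 1 past 1.5-fold lower, with 51 UMIs in epilepsy and 165 in control, log2 -0.96 (-1.44 to -0.50). That is 1 of 12, against 5.16% of all genes and 11.3% of genes under 10 kb, the class of Rab3a. Of 26 neuropeptide precursors 3 were measured, the members Cck and Penk with Nmb (neuromedin B) at 28 and 41 UMIs, log2 0.19 (-0.56 to 0.91), and 0 were past 1.5-fold. Of 5 NPY receptor genes 2 were measured, Npy2r and Npy5r.

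Receptors of the other member peptides had no common direction. Of 13 on the list 4 were measured, with Vipr1, a VIP receptor, at log2 -0.20 (-0.51 to 0.12) and Sstr2, a somatostatin receptor, at 0.21 (-0.24 to 0.67). The other 2, both opioid receptors at which the enkephalins act, were at least 1.5-fold higher in epilepsy, against 8.72% of all genes. Among genes with 50 to 100 UMIs, the range of both receptors, 24.5% were. Oprd1, the delta receptor, had 56 UMIs in epilepsy and 29 in control, 9.60 and 2.98 CPM, log2 1.69 (1.01 to 2.39), and Oprm1, the mu receptor, had 54 and 35 UMIs, 9.25 and 3.60 CPM, log2 1.36 (0.72 to 2.02). Both were far higher in interneuron-like nuclei, Oprd1 at 112 and 121 CPM and Oprm1 at 84.7 and 79.9 CPM, with no difference between the libraries beyond counting error there. Gad1, the GABA-synthesis gene that pyramidal cells should lack, moved the same way in pyramidal-like nuclei, with 46 and 35 UMIs, 7.88 and 3.60 CPM, log2 1.13 (0.47 to 1.81), and Gad2 had 21 and 24 UMIs, log2 0.54 (-0.37 to 1.45). Oprm1 has a body of 279693 bp, and 15.3% of the genes over 100 kb were at least 1.5-fold higher in epilepsy. Oprd1 has a body of 33761 bp, and 6.95% of the genes of 10 to 100 kb were. The part of interneuron RNA and of gene length in the 2 opioid receptor values was not tested.

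**Figure D5:**
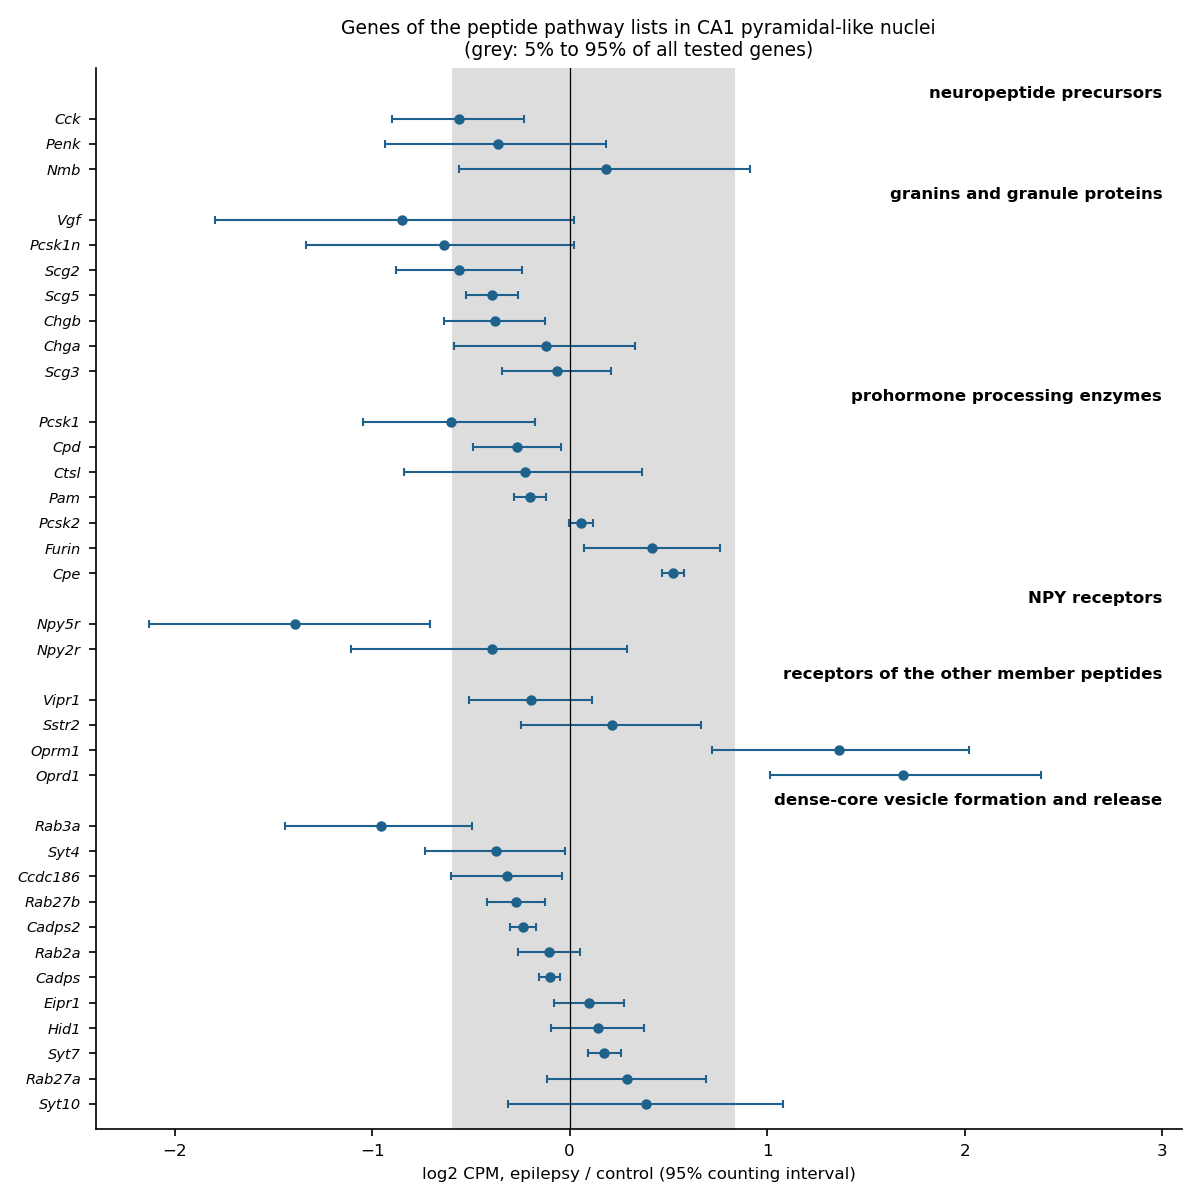
Log2 ratio of epilepsy over control CPM (horizontal axis) with 95% counting intervals for the genes of 6 peptide pathway lists that had at least 50 UMIs in CA1 pyramidal-like nuclei; the grey band runs from the 5% to the 95% quantile of all tested genes. All 7 granins and granule proteins lie below 0, Npy5r, Rab3a, Vgf, Pcsk1n and Pcsk1 lie left of the band, and Oprm1 and Oprd1 lie right of it.

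The genes most like Npy and Sst across 8 classes in 2 libraries (16 values of log2(CPM + 10), Pearson's r, genes with at least 100 UMIs) were taken by rank. For Npy they included Dlx1as (0.94) and Rab3b (0.89), and for Sst they were Ankrd55 (0.97), Gna14 (0.95) and Igf1 (0.95). The 16 values share libraries and several classes hold few nuclei, so these are descriptions only. The other 7 members had top values between 0.84 and 0.95; their counts per class were few.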

How the data were processed

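The deposited matrices hold raw UMI counts per gene and nucleus, as the authors' files give them (whole numbers, no normalization). Per the labels' protocols, dorsal CA1 nuclei were sorted, 15000 were loaded per sample on a droplet system with a 3' kit and read as paired ends; Cell Ranger 2.2.0 and FastQC are named in the submitters' processing notes. The annotation, the barcode filter, the use of strand and the counting of intronic reads are not given in the sources used here. Of 30431 listed genes, 30330 identifiers occur in GENCODE M21 (GRCm38), which gave gene positions and lengths; promoters came from RefSeq.

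Groups follow the condition label, 1 library each. A minimum of 200 genes and a ceiling of 5% mitochondrial UMIs removed 0 nuclei. Scrublet marked 4 nuclei in each library (0.130% and 0.109%), so the 3% with the highest scores were removed, 92 epilepsy and 110 control nuclei. Counts were scaled to 10000 per nucleus, logged and clustered with scanpy 1.11.5 (2000 variable genes without the members, centred by library, 30 components, 20 neighbours, leidenalg 0.10.2 at resolution 1.0); pyramidal and interneuron nuclei were clustered again. A cluster needed 3 class markers at 20 CPM and 2-fold. The markers were listed first, but naming and sublayer thresholds were set after clusters had been seen, and 1 earlier naming rule was replaced. The CA2/CA3 name rests on 3 markers.

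UMIs were summed per class and library. Sums have exact Poisson intervals, ratios exact conditional binomial intervals and shares Clopper-Pearson intervals at 95% (scipy 1.17.1). These cover counting error only; nuclei are not replicates, so there is no p-value. The minimum for reading a ratio was 50 UMIs over both libraries. Some ratios of members, and that of Gad2, are also given from fewer UMIs, as descriptions with their intervals. All members are reported; list genes are named where they were past 1.5-fold with an interval leaving out 0 in pyramidal or interneuron nuclei, at most 4 per list, and the others (Scg5, Chgb, Scg3, Chga, Vgf, Pcsk1n, Cpe, Nmb, Vipr1, Sstr2, Gad1, Gad2) were picked with values in view. The 3 genes most like each member by correlation were taken by rank, and 1 gene among them is not reported here. Intervals were checked on simulated Poisson counts, the model that they assume. The check does not cover UMIs that come together from 1 nucleus. Alternatives were at least 500 genes per nucleus, doublets kept, no centring, resolutions 0.5 and 2.0, members among the clustering genes, thinning to 1000 UMIs, trimmed-mean factors (R 4.3.3, edgeR 4.0.16), equal weight for each nucleus, minimums of 20 and 200 UMIs, and the omission of pyramidal sub-clusters led by activity genes or of low depth, the last 2 added after seeing the data. The members and lists were chosen with earlier results of these data known.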

Additional observations from a re-analysis of the deposited data

How the results depend on the processing

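The 20 member ratios were recomputed under 9 alternatives, and those over all pyramidal-like nuclei under 11. Of 192 values 191 stayed inside the 95% interval of the value reported. The exception was Scg2 in pyramidal-like nuclei, at -0.16 when nuclei were thinned to 1000 UMIs, against -0.56 as reported; the cause was not tested. In pyramidal-like nuclei the alternatives spanned -1.48 to -1.22 for Npy5r, -0.67 to -0.45 for Cck, -0.66 to -0.16 for Scg2, -0.48 to -0.33 for Penk and -0.62 to -0.07 for Npy2r, all below 0. In interneuron-like nuclei they spanned 0.31 to 0.72 for Npy and -0.80 to -0.29 for Sst. The sign of the superficial-like ratio was not kept under every alternative for Cck (-0.75 to 0.10) and Npy2r (-0.44 to 1.05).

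The counts of genes past 1.5-fold moved with the minimum depth, since it sets how many genes are read. In pyramidal-like nuclei 939 genes were lower and 1965 higher at a minimum of 20 UMIs, and 185 and 239 at a minimum of 200, against 572 and 967 at 50. In interneuron-like nuclei 828 were lower and 686 higher at 20 UMIs, and 15 and 21 at 200, against 242 and 186 at 50. At 200 UMIs 43.6% of the called pyramidal genes were lower, against 37.2% at 50. The median of the receptors of the other member peptides was -0.20 at 200 UMIs, where fewer of them were read, against 0.79 at 50. Thinned shares of nuclei with a UMI were lower in both libraries, as fewer UMIs per nucleus were kept.

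No paired analysis was possible because each condition has 1 library. Depth limits the interneuron members, whose totals per library ran from 4 to 45 UMIs for Npy, Sst and Vip, and the granule-like nuclei of the epilepsy library.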

Other observations

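In CA2/CA3 pyramidal-like nuclei, 64 in epilepsy and 42 in control, Cck had 6 and 4 UMIs, 30.2 CPM (11.1 to 65.7) and 27.9 CPM (7.60 to 71.4), with no difference beyond counting error and intervals that include the CA1 pyramidal level of Cck in both libraries. Scg2 had 2 and 0 UMIs there, and Npy had 0 and 1.

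The Neat1-led pyramidal sub-cluster, whose median depth was 1368 UMIs in epilepsy and 1875 in control, was the 1 of 6 in which Cck was not lower in epilepsy, with 15 and 14 UMIs, 29.2 CPM (16.3 to 48.2) and 20.5 CPM (11.2 to 34.4). A small MGE-type sub-cluster of 10 nuclei in each library was the 1 interneuron sub-cluster with more Scg2 UMIs in epilepsy, 3 against 0.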
